A study of Mus musculus with 6 samples.

Results

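Circular RNAs (circRNAs) are RNA loops closed by a back-splice, in which the end of a downstream exon is joined to the start of an upstream exon of the same transcript. The circRNAs described here lie within 3 metabolic genes, Me1, Pnpla3 and Selenbp1, and were followed during differentiation of mouse brown preadipocytes in culture. A circRNA was taken as a member when it lay wholly inside one of 3 mm9 intervals on the strand of the gene: chromosome 9 from 86470000 to 86600000 on the minus strand (Me1), chromosome 15 from 83995000 to 84020000 on the plus strand (Pnpla3) and chromosome 3 from 94736000 to 94749000 on the plus strand (Selenbp1). This gave 6 of the 3869 listed circRNAs, 3 at Me1, 2 at Pnpla3 and 1 at Selenbp1. The genes were chosen by measured values, namely the high level of a circRNA of each at day 8 compared with day 4 and day 0. Levels in those comparisons are therefore a description and are given without a test.

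The libraries came from stromal vascular cells of C57BL/6 mice aged 6 weeks, taken from a depot that the labels name inguinal BAT. There were 2 libraries of cells before induction (day 0), 2 of cells that had spent 4 days with dexamethasone, isobutylmethylxanthine and insulin (day 4), and 2 of cells that then spent the days up to day 8 with insulin and 10 nM of the thyroid hormone T3. T3, the withdrawal of dexamethasone and isobutylmethylxanthine, and the longer time in culture all set day 8 apart from day 4, and their effects cannot be told apart in this design. Ribosomal and linear RNA had been removed from the RNA to enrich circRNAs, no modified allele is named, and the labels leave unsaid if each day was sampled from separate dishes or mice. The p-values below thus measure the spread between these libraries, which may be technical. Library totals ranged from 40384 to 45733 inferred back-splice reads. The table carries no gene names, so adipocyte and preadipocyte markers, and the other genes of the pathways, were not analysed here.

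Me1 encodes the cytosolic malic enzyme, which turns malate into pyruvate and yields NADPH, the reductant of fatty acid synthesis. It is a classical thyroid hormone target in rat liver. Pnpla3 encodes adiponutrin, a lipid droplet protein of the patatin-like phospholipase family that is abundant in fat and is controlled by feeding and insulin. Selenbp1 encodes a selenium-binding protein that oxidises methanethiol. A circRNA level is not a measure of the linear messenger RNA or of the protein, neither of which was measured here.

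The place of the circRNAs in their genes was checked by length. The distance between the joined ends of each circRNA was compared with every distance from an annotated exon boundary to a later one in the GENCODE M21 annotation of the gene, without converting any coordinate. Of the 6 circRNAs, 5 had exactly 1 exon pair at their distance, among 207 distinct distances for Me1, 67 for Pnpla3 and 145 for Selenbp1. The distance between the 2 matched Me1 circRNAs was also the same in the table and in the annotation. All bases of the 5 matched circles, introns removed, were coding in the main annotated transcript, and none held the first exon. A loop whose spliced length is a multiple of 3 keeps its reading frame on a second passage. Counted with the exons of the main annotated transcript, 1 of the 5 had such a length.

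The Selenbp1 circRNA (chr3:94743568-94744148 on mm9, plus strand, no circBase identifier, circBase being a public catalogue of circRNAs) spanned 581 bp and matched exons 6 to 7 of 12, with a spliced length of 362 nt. The Pnpla3 circRNAs began at the same position. The longer, mmu_circ_0005910 (chr15:84001512-84016511, plus strand), spanned 15000 bp and matched the distance from the start of exon 2 to a splice site 105 bases into exon 8, the last exon, which has 230 bases. That site is annotated in a second transcript, Pnpla3-202, and the next 2 bases of the exon are GT, the letters of a splice donor. The shorter, mmu_circ_0005909 (chr15:84001512-84011482, plus strand), spanned 9971 bp and matched exons 2 to 7. Their spliced lengths were 964 and 859 nt.

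The Me1 circRNAs had no circBase identifier. One (chr9:86505460-86513441, minus strand) spanned 7982 bp and matched exons 7 to 9 of 14, with 322 nt. Another (chr9:86539918-86548325, minus strand) spanned 8408 bp and matched exons 4 to 6, with 342 nt. The third and longest (chr9:86539918-86573881, minus strand) spanned 33964 bp and shared its downstream end, the end of exon 6, with the second. Its span matched no exon pair. Counted from the end of exon 6, the nearest exon start of any annotated Me1 transcript was that of exon 2, at 33642 bp, a difference of 322 bp. Over all annotated exon pairs, including those with another end, the nearest distance was 34053 bp. No sequence is given for it.

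**Figure D1:**
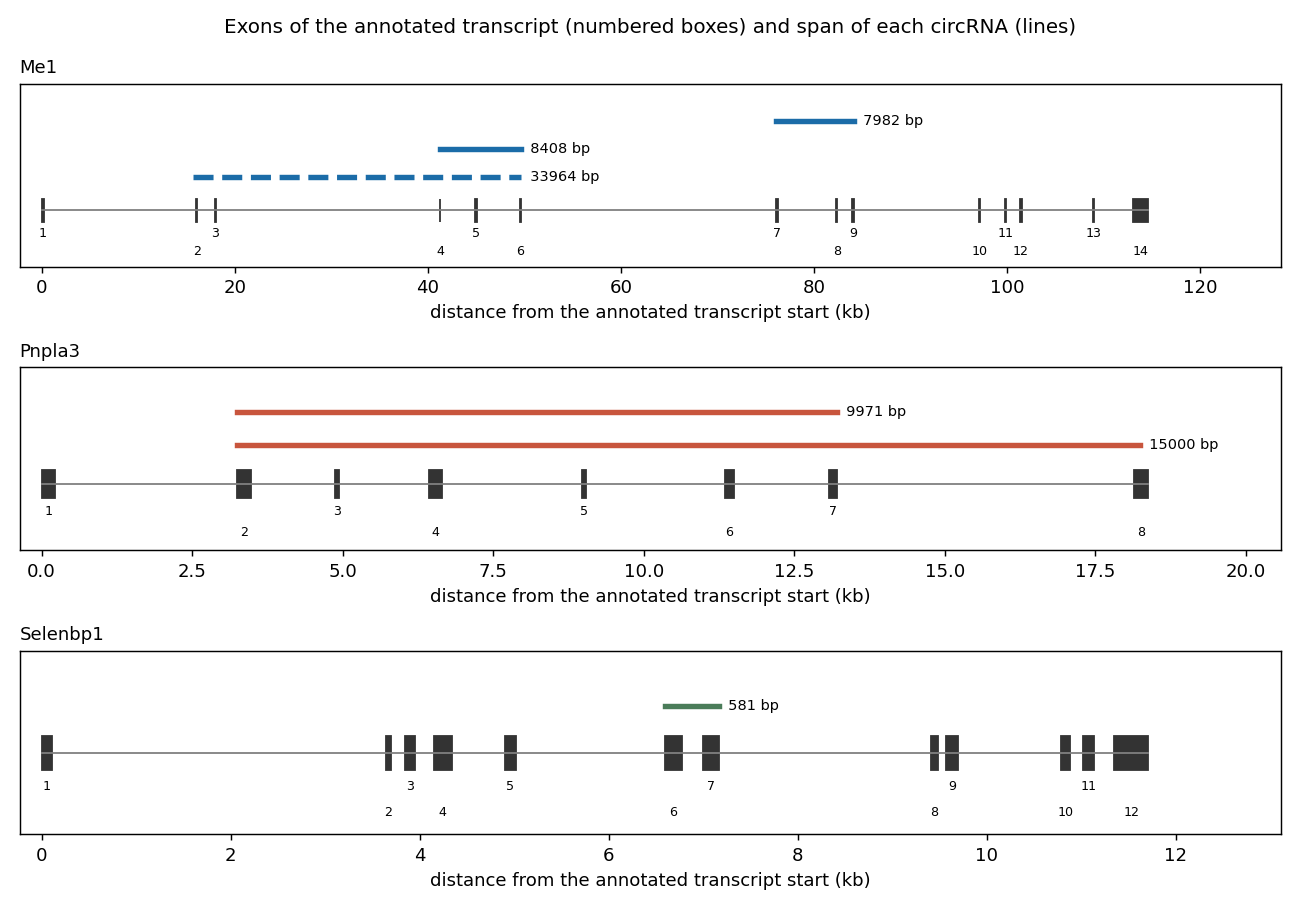
Exons of the main annotated transcript of Me1, Pnpla3 and Selenbp1 (numbered boxes, GENCODE M21) against the distance from the transcript start in kb, with 1 line for the span of each circRNA. Solid lines are the 5 circRNAs whose span equals the distance of 1 exon pair, and the dashed line is the 33964 bp Me1 circRNA, drawn from the end of exon 6 that it shares with the 8408 bp circRNA.

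The back-splice junctions of the 5 matched circRNAs show which exon ends are joined. They were read from GENCODE M21 transcript sequences on GRCm38 by exon, not from reads, and are inferred from the length match. In each line the lower-case letters are the last 30 bases before the back-splice, from the downstream exon. The capitals are the first 30 bases of the upstream exon, and all lines read 5′ to 3′. For the longer Pnpla3 circRNA the lower-case letters stop within exon 8 rather than at its end. The 2 Pnpla3 junctions share their capitals.
Me1 exons 4 to 6: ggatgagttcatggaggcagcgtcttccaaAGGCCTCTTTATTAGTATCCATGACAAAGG
Me1 exons 7 to 9: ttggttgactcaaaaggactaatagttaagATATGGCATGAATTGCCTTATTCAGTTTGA
Pnpla3 exon 2 to within exon 8: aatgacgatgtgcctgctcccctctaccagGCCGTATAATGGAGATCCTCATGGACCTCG
Pnpla3 exons 2 to 7: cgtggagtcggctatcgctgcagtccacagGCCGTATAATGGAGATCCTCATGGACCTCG
Selenbp1 exons 6 to 7: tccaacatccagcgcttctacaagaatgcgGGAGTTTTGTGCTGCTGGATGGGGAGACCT

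Levels are the deposited CPM, read counts scaled to the sum over all listed circRNAs. Within a library every value was a whole multiple of 1 step, and the smallest non-zero value was 2 steps, so each step was counted as 1 read and read numbers are inferences. A value of 0 means listed at 0, which may hide 1 read. In bulk cultures, fewer cells that make a circRNA and fewer copies per cell cannot be told apart.

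The Selenbp1 circRNA was listed at 0 in both day 0 libraries. At day 4 it had 241 and 49.5 CPM, from 11 and 2 reads. At day 8 it had 1519 and 1421 CPM, from 62 and 60 reads. The 2 day 8 libraries were close together and lay above every earlier library, while the 2 day 4 libraries differed from each other by more than their own mean. It was the only member above 0 at day 4.

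The day 8 mean was 1470 ± 69.0 CPM and the day 4 mean 145 ± 135 CPM (SD, n = 2 each), a ratio of 10.1. This ratio rested on single day 4 libraries, being 29.7 without day 4 replicate 1 and 6.11 without day 4 replicate 2. On the scale of log2(CPM + 43.7), which understates the change of low values, the difference between day 8 and day 4 was 3.26. Its SE was 0.68 in the fit of sums per gene, where this circRNA is the whole sum. In that fit the difference was 4.10 without day 4 replicate 1 and 2.42 without day 4 replicate 2. No ratio to day 0 is given, since both day 0 libraries were listed at 0.

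The longer Pnpla3 circRNA, mmu_circ_0005910, had 0 CPM in every library before day 8. At day 8 it had 1078 and 1184 CPM, from 44 and 50 reads, with a mean of 1131 ± 75.3 CPM (SD, n = 2). The shorter one, mmu_circ_0005909, was likewise listed at 0 in the 4 earlier libraries and had 196 and 47.4 CPM at day 8, from 8 and 2 reads. Both were thus listed at day 8 alone, and the value of the shorter one in day 8 replicate 2 was the smallest that the table can hold for that library.

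The longest Me1 circRNA was listed at 0 at days 0 and 4 and had 735 and 640 CPM at day 8, from 30 and 27 reads, with a mean of 687 ± 67.4 CPM (SD, n = 2). The circRNA of exons 4 to 6, which shares an end with it, was also listed at 0 at days 0 and 4 and had 269 and 47.4 CPM at day 8, from 11 and 2 reads. Its 2 day 8 libraries differed by more than their mean of 158 CPM. The circRNA of exons 7 to 9 was the only member above 0 at day 0. It had 0 CPM in day 0 replicate 1, 145 CPM (6 reads) in day 0 replicate 2, and 0 CPM in each day 4 library. At day 8 it had 318 and 308 CPM, from 13 reads in each library, above all 4 earlier libraries.

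**Figure D2:**
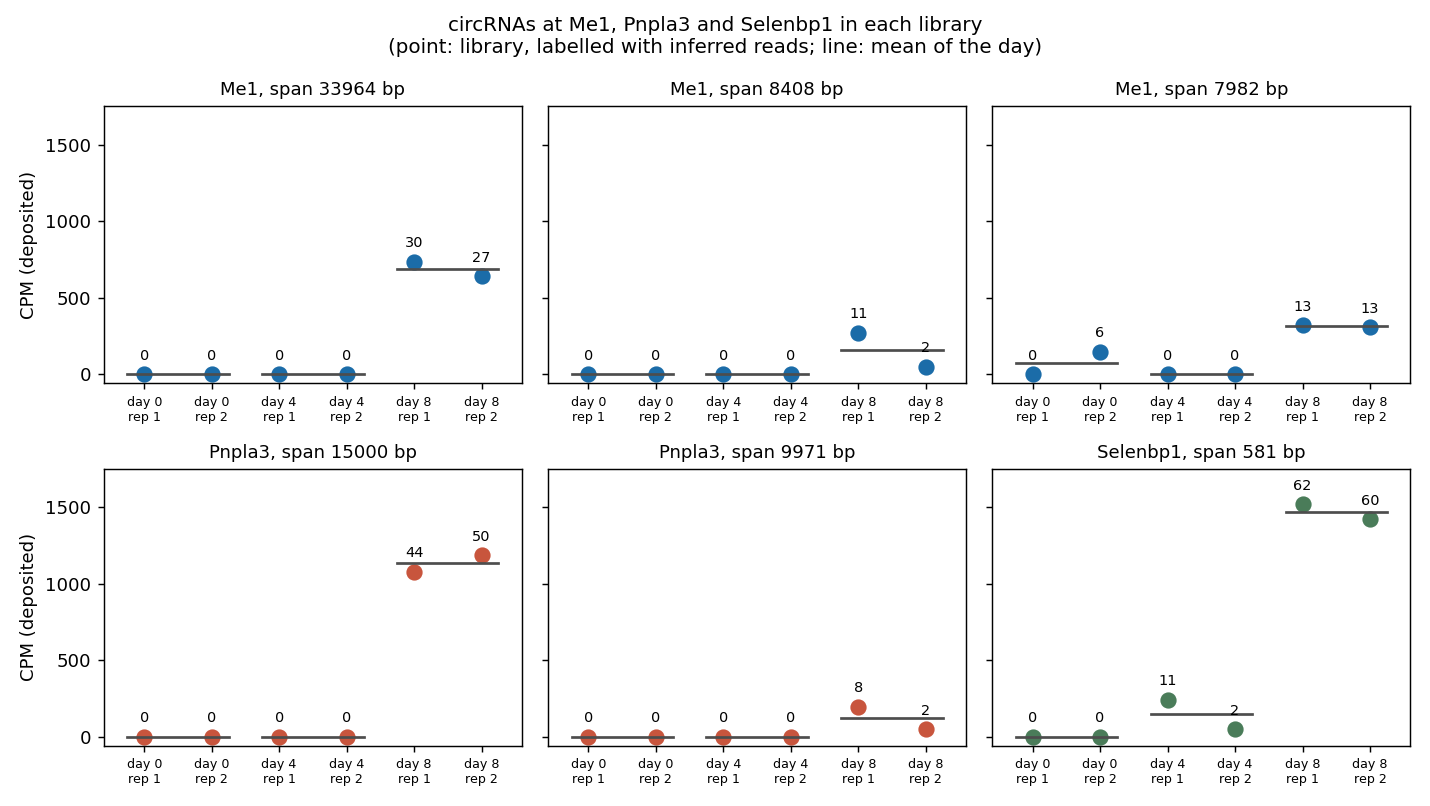
Deposited CPM of each of the 6 circRNAs in each library, with 1 panel per circRNA, points for libraries labelled with the inferred reads and lines for the mean of the 2 libraries of a day. All points of days 0 and 4 lie at 0 except day 0 replicate 2 of the 7982 bp Me1 circRNA (145 CPM) and the 2 day 4 libraries of Selenbp1 (241 and 49.5 CPM).

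Summed over its circRNAs, Me1 had 0 and 145 CPM in the day 0 libraries, 0 and 0 CPM in those of day 4, and 1323 and 995 CPM in those of day 8. Pnpla3 was listed at 0 in the 4 earlier libraries and had 1274 and 1232 CPM at day 8, with 52 reads in each library. The sum for Selenbp1 is that of its 1 circRNA. At day 8 the means were 1159 ± 232 CPM for Me1, 1253 ± 29.8 CPM for Pnpla3 and 1470 ± 69.0 CPM for Selenbp1 (SD, n = 2 each). In order of level at day 8, both Selenbp1 libraries lay above both Pnpla3 libraries, and the Me1 libraries lay on both sides of those of Pnpla3, so these neighbours did not differ beyond their spread. Read numbers of different circRNAs depend on how well each junction is recovered, so this order is one of junction reads.

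The Me1 sum at day 8 was 16.0 times that at day 0 (means of 1159 ± 232 CPM for day 8 and 72.6 ± 103 CPM for day 0, SD, n = 2 each), and 7.98 times without day 0 replicate 1. Without day 0 replicate 2 the day 0 sum was listed at 0 and no ratio can be given. On the log2(CPM + 43.7) scale the Me1 difference between day 8 and day 0 was 3.77 (SE 0.86), against 2.74 without day 0 replicate 1. Together the 3 genes held 0 and 6 reads in the day 0 libraries, 11 and 2 reads in those of day 4, and 168 and 154 reads in those of day 8. Each gene made up between 0.0995% and 0.152% of the listed CPM in a day 8 library.

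**Figure D3:**
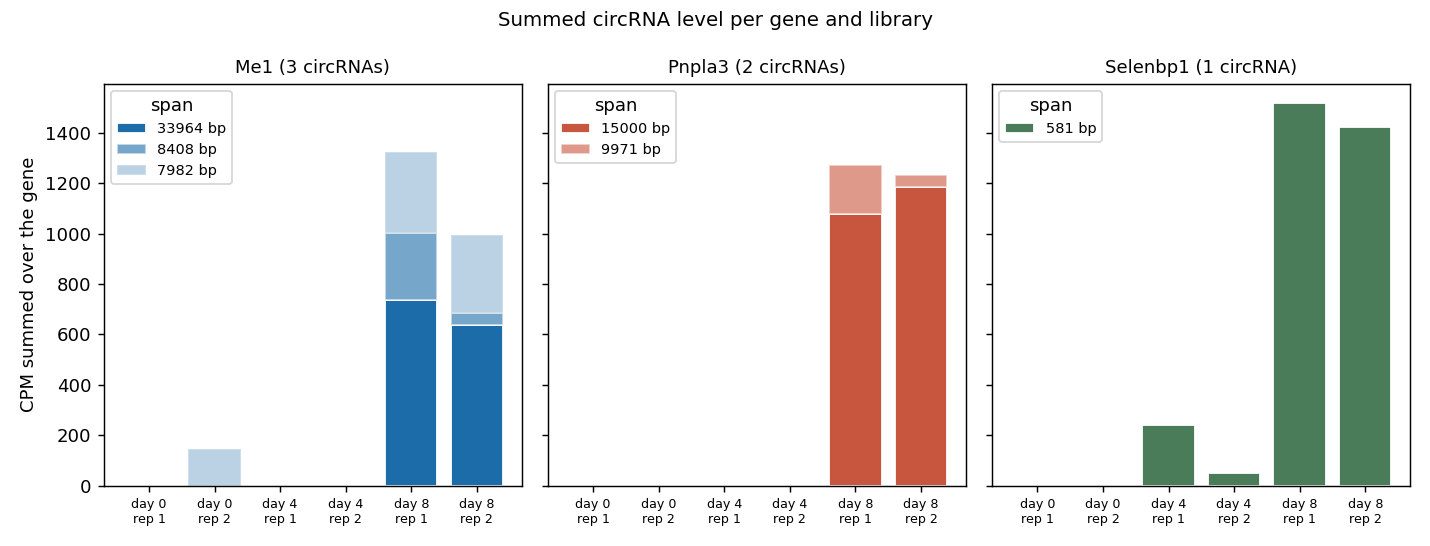
CPM summed over the circRNAs of Me1, Pnpla3 and Selenbp1 in each library, as bars from 0 divided by circRNA, which is named by its span in bp. The day 8 sums lie between 995 and 1519 CPM, and the highest earlier sum is 241 CPM, for Selenbp1 in day 4 replicate 1.

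The share of each circRNA within its gene was read only at day 8, where the genes had at least 42 reads per library. The longer Pnpla3 circRNA held 84.6% of the reads of the gene in replicate 1 (44 of 52, exact 95% interval 71.9% to 93.1%) and 96.2% in replicate 2 (50 of 52, 86.8% to 99.5%). The longest Me1 circRNA held 55.6% in replicate 1 (30 of 54, 41.4% to 69.1%) and 64.3% in replicate 2 (27 of 42, 48.0% to 78.4%). The Me1 circRNA of exons 4 to 6 held 20.4% in replicate 1 (11 of 54, 10.6% to 33.5%) and 4.76% in replicate 2 (2 of 42, 0.582% to 16.2%). The circRNA that led its gene was thus the same in both day 8 libraries for Me1 and Pnpla3, while the intervals of the minor circRNAs overlapped between libraries. These intervals cover counting error only, and reads are not known to be independent molecules.

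Setting day 4 against day 0 asks what changed during induction, and this comparison is the one least tied to how the genes were chosen, although the low levels at day 4 were known. Over the table, limma called 8.17% of the 3869 circRNAs at an adjusted p (Benjamini-Hochberg) under 0.05. It called 0 of the 6 members, of which 4 were listed at 0 at both days and could not be called. At an unadjusted p under 0.05 there was 1 of the 6, against 22.0% of all listed circRNAs. That one was the Selenbp1 circRNA, at 145 ± 135 CPM at day 4 and listed at 0 at day 0, with a limma adjusted p of 0.157. Over the alternatives its adjusted p lay between 0.0337 and 0.396, and it was called only without day 4 replicate 2 (0.0337). The Me1 circRNA of exons 7 to 9, listed at 0 at day 4 and at 72.6 ± 103 CPM at day 0, had a limma adjusted p of 0.525. Its day 0 level rested on 6 reads in day 0 replicate 2. Without that library it was listed at 0 at both days. The other 4 members were those listed at 0 at both days. The genes were chosen for levels that were lower at these days, so the counts of members are no result about induction. Among sums per gene or locus, 7.93% of 2510 were called, and of the 3 genes 0 were called by limma. At an unadjusted p under 0.05 there was 1 of the 3, against 22.7% of all sums. The limma adjusted p was 0.175 for Selenbp1 and 0.519 for Me1. The Pnpla3 sum was listed at 0 at both days and could not be called.

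Day 8 against either earlier day covers the medium with T3. The genes were chosen on these comparisons, which share the day 8 libraries, so levels alone are shown, beside those of the whole table.

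**Figure D4:**
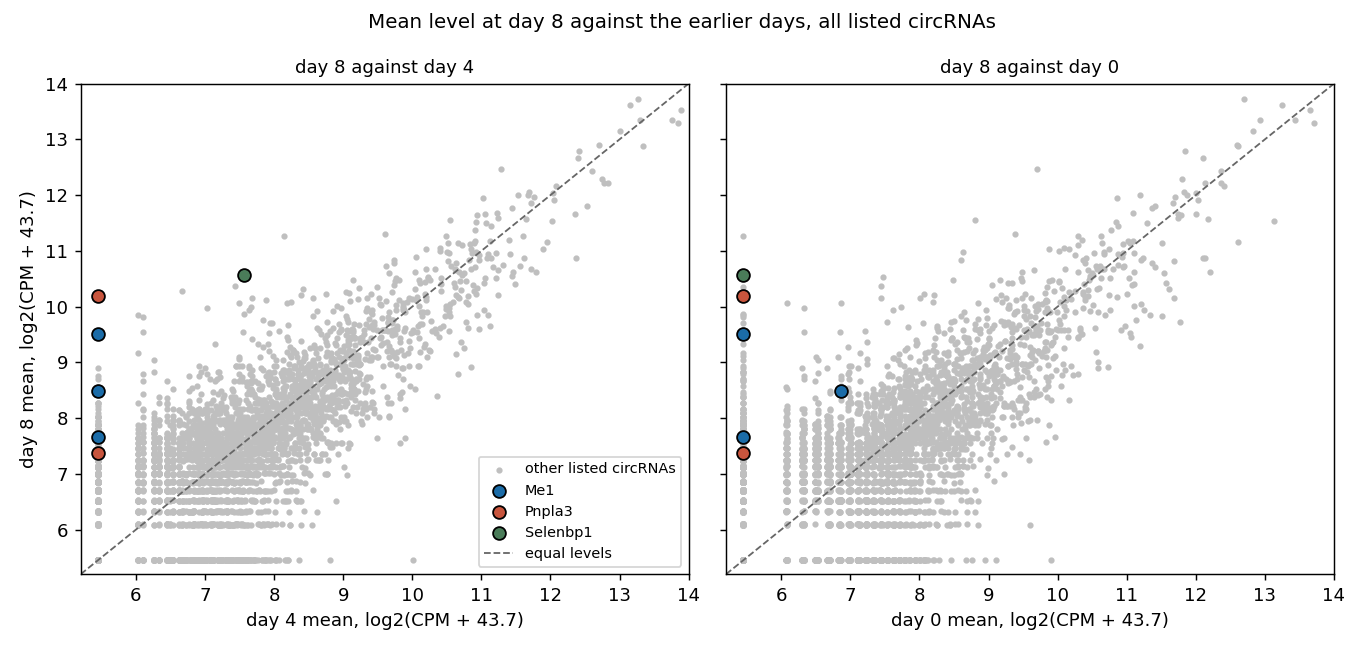
Mean level at day 8 against the mean at day 4 (left) and day 0 (right) on the log2(CPM + 43.7) scale, with 1 grey point per other listed circRNA, coloured points for the circRNAs of the 3 genes and a dashed line of equal levels. All 6 coloured points lie above the dashed line in both panels, and the genes were chosen on these comparisons. Those at the left edge had 0 CPM in each library of the earlier day.

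Against the whole table, the leading circRNAs of the 3 genes were well expressed at day 8, which reflects how the genes were chosen. By mean CPM at day 8, the Selenbp1 circRNA ranked 97th, the longer Pnpla3 circRNA 141st and the longest Me1 circRNA 285th of 3869. The other 3 ranked 680th, 1356th and 1724th. The median over the 3358 circRNAs above 0 at day 8 was 132 CPM. None of the 6 members was above 0 in all 6 libraries, while 1248 circRNAs of the table were.

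A set of 212 of the 3869 listed circRNAs had no listed CPM before day 8 and was above 0 in each day 8 library. It held 4 of the 6 members, both Pnpla3 circRNAs and the 2 Me1 circRNAs that share the end of exon 6. That count also reflects how the genes were chosen. Ranked by mean CPM at day 8 within the 212, the longer Pnpla3 circRNA was 1st and the longest Me1 circRNA 2nd, a place that reflects how the genes were chosen. The circRNA of rank 3 (chr17:34872349-34952518, minus strand, no circBase identifier) had 686 CPM, against 687 CPM for that of Me1. The minor circRNAs of Me1 and Pnpla3 ranked 20th and 40th. The median of the 212 was 84.1 CPM.

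**Figure D5:**
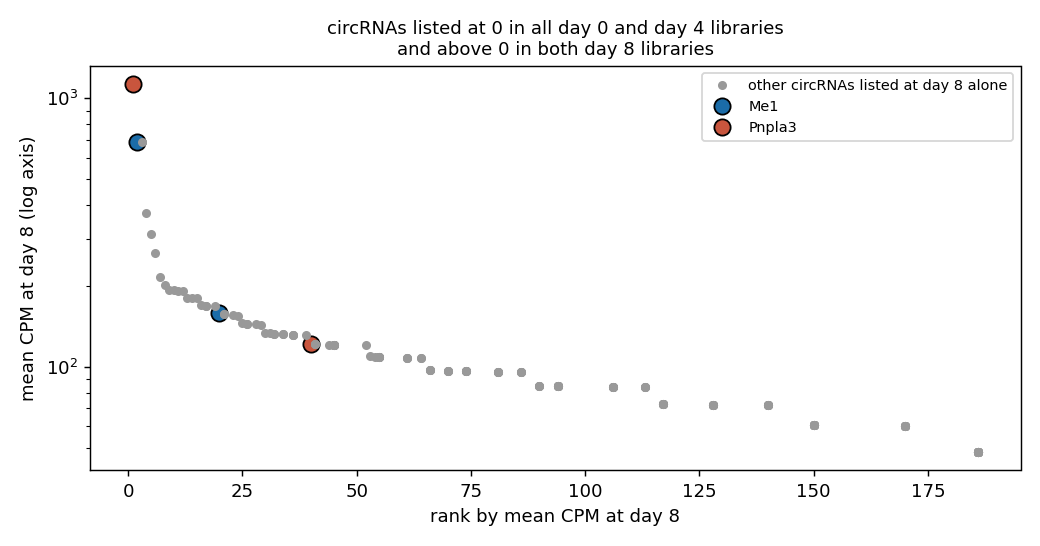
Mean CPM at day 8 (log axis) of the 212 circRNAs that were listed at 0 in all 4 earlier libraries and above 0 in both day 8 libraries, against their rank, with equal values sharing a rank. Large coloured points are the 2 Pnpla3 circRNAs at 1131 and 122 CPM and 2 of the 3 Me1 circRNAs at 687 and 158 CPM.

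In structure the 6 circRNAs varied widely. The Selenbp1 circRNA was shorter in span than most, with 6.10% of the listed circRNAs spanning less, and 10.7% spanned more than the longest Me1 circRNA, around a median of 7871 bp. Of the 6, 2 carried a circBase identifier, both at Pnpla3, against 63.1% of the table. Of the 6, 4 shared an end with another listed circRNA, against 48.9% of the table.

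No listed circRNA crossed the border of the 3 intervals or lay in them on the other strand. Distances in this paragraph run to the nearest member circRNA, not to the gene or the border of its interval, which lie closer. The nearest outside Me1 (chr9:86453022-86456300, minus strand) lay 49160 bp away and had 46.4 and 0 CPM in the day 0 libraries, 0 and 0 CPM in those of day 4, and 220 and 213 CPM in those of day 8. It was thus higher in both day 8 libraries than in any earlier one, as the Me1 circRNAs were, and its host is not named in the table. The nearest to Selenbp1, mmu_circ_0010939 (chr3:94674002-94675247, plus strand), lay 68321 bp away and had 0 and 0 CPM in the day 0 libraries, 0 and 74.3 CPM in those of day 4, and 49.0 and 118 CPM in those of day 8, where the days overlap. The nearest to Pnpla3 lay 834356 bp away.

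The circRNAs most like each gene sum were found by Pearson's r over the 6 libraries on the log2(CPM + 43.7) scale, among 1410 circRNAs outside the 3 genes with a mean of at least 10 reads in their highest day. With 2 libraries per day and many values at 0, r mostly reflects a shared order of days, and it is given as a description. Closest to Pnpla3, with r between 0.9998 and 1, were circRNAs at chr10:106385712-106425965 (minus strand), chr7:94487467-94524792 (plus strand) and chr17:34872349-34952518 (minus strand), all listed at 0 before day 8. At day 8 they had 269 and 261, 367 and 379, and 661 and 711 CPM.

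Closest to Selenbp1 was mmu_circ_0015392 (chr9:122041011-122046719, plus strand, r = 0.99). It had 0 and 0 CPM in the day 0 libraries, 219 and 74.3 CPM in those of day 4, and 735 and 1042 CPM in those of day 8, and so was also above 0 from day 4. It was followed by mmu_circ_0012510 (chr5:29650342-29673446, minus strand, r = 0.99), which had between 605 and 1372 CPM in the 6 libraries and was thus well above 0 at day 0, and by a circRNA at chr10:106482269-106490572 (minus strand, r = 0.99).

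Closest to Me1 was mmu_circ_0001497 (chr6:97953881-97956191, plus strand, r = 0.9987). It had 0 and 72.6 CPM in the day 0 libraries, 0 and 0 CPM in those of day 4, and 465 and 308 CPM in those of day 8, which is the same set of libraries above 0 as for the Me1 sum. The next were mmu_circ_0012733 (chr5:66753957-66783574, minus strand, r = 0.97) and a circRNA at chrX:147043129-147048494 (plus strand, r = 0.97).

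Because the later medium held T3, the RefSeq promoter windows of the 3 genes (GRCm38.p6, 250 bases before to 50 after each of 4 annotated starts, 2 of them at Me1) were searched on both strands. Neither the hexamer AGGTCA, the half-site of thyroid hormone receptors and other nuclear receptors, nor its direct repeat with a spacer of 4 bases (DR4) was present in any of the 4 windows. Over all 32851 windows of this length, 16.3% held the half-site and 0.0152% the repeat, which contains it. The E-box CACGTG was also in none of the 4 and in 7.15% of all windows. The GC-box core GGGGCG occurred 3 times in 1 Me1 window and 2 times in the Pnpla3 window, was absent from that of Selenbp1, and was in 31.4% of all windows. Only exact matches were counted, and sites that depart from these letters were not sought. Absence of AGGTCA is therefore not absence of a thyroid hormone receptor site. These letters describe the windows only, and binding was not measured.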

How the data were processed

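Values were deposited by the authors as CPM in 1 table of 3869 circRNAs and 6 libraries. Reads were handled with HISAT2 2.2.0 and FastQC 0.11.9, with the build mm9, per the submitters' processing notes, and a circRNA caller is not named in the labels. Every listed circRNA was detected in each library of 1 day or more, and this selection, seen in the values, inflates differences of low circRNAs between days. CPM are relative to the listed circRNAs, so sequencing depth is unknown.

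Printed levels are the deposited CPM. For the fits, CPM were scaled by trimmed-mean-of-M-values factors (0.964 to 1.06) and analysed as log2(CPM + 43.7), 43.7 CPM being the smallest non-zero value, with limma 3.58.1 in R 4.3.3 (mean-variance trend, 3 days together). Benjamini-Hochberg adjustment ran over all circRNAs, or over 2510 sums (the 3 genes and 2507 loci of circRNAs overlapping on a strand). The procedure was tested on simulated data. A count test was planned in case counts or whole reads were given. The values are CPM, so the limma analysis was used. Starts in the table count from 0 and are printed from 1.

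Members and lists were chosen with earlier results of these data known. All members are named, and for each gene sum the 3 circRNAs with the highest r. Shares have exact (Clopper-Pearson) intervals. Alternatives were other scalings, pseudocounts of 1 and 0.1 CPM, at least 10 reads in at least 2 libraries, 4 libraries only, a replicate block, and each library left out.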

Additional observations from a re-analysis of the deposited data

How the results depend on the processing

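Of 154 alternative values for 15 results, 129 were kept and 0 reversed. Kept meant within a fixed factor for counts and ratios, or within the SD of the day 8 libraries for CPM differences. For log2 differences it meant within the SE (day 8) or the same direction and side of the threshold (day 4 against day 0). Some of the 129 could not have moved. The replicate block left CPM differences unchanged. So did leaving out an earlier library where both of its day were at 0. The largest Selenbp1 circRNA is its sum. Where 10 reads were required in 2 or more libraries, which 4 of the 6 members passed, limma called 50 of 1368 circRNAs between days 4 and 0 (316 of 3869 without this filter). It then called 64 sums for day 4 against day 0 (199 without it). With the 4 libraries of days 0 and 4 alone, 36 circRNAs and 119 sums were called. The filter changes the number tested and the 4-library fit the number of samples. The cause of the other changes was not tested.

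With pseudocounts of 1 and 0.1 CPM, the Me1 log2 difference between day 8 and day 0 was 6.63 and 8.29 (3.77 with 43.7 CPM). Between day 8 and earlier days, the Pnpla3 sum differed by 1253 CPM as deposited, 1296 CPM after trimmed-mean scaling (chosen after seeing the data) and 1299 CPM after median-of-ratios scaling. It differed by 1131 CPM for its largest circRNA alone, which is also the only one that passed the filter of 10 reads. The largest Me1 circRNA alone differed by 687 CPM, against 1159 CPM (day 4) and 1086 CPM (day 0) for the sum.

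With each library left out in turn, where a day left with 1 library is assumed to vary like the others, members called between days 4 and 0 ranged from 0 to 1. The Selenbp1 difference between day 8 and day 4 ranged from 1230 to 1421 CPM, from 2.42 to 4.10 on the log2 scale, and from 6.11 to 29.7 as a ratio. With day 0 replicate 2 kept, the Me1 difference between day 8 and day 0 ranged from 2.74 to 3.97 on the log2 scale. As a ratio it then ranged from 7.98 to 18.2. Without day 0 replicate 2 the ratio has no value, and the log2 difference is not given here, so these ranges leave that case out.

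The labels number the replicates of each day 1 and 2, with nothing that ties them across days. Over 1248 circRNAs, the deviations of same-numbered libraries from their day means had r = -0.0029, -0.012 and 0.037, so the numbers were taken not to pair the libraries. With the replicate block, 304 circRNAs, 0 of them members, and 180 sums were called between days 4 and 0. The planned tests for counts were not run, because the values are CPM. Reads of 2 to 13 per library limit the minor circRNAs.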
